A study of Rattus norvegicus with 5 samples.

Results

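Rat cerebellar granule cells were compared after 5 days (D5) and after 1 day (D1) in culture. Neither had received ICRF-193, the topoisomerase inhibitor that the study tested. Both groups were cells of Wistar rats that were 8 days old at isolation, grown in medium with 10% fetal calf serum, the antibiotic kanamycin and 25 mM KCl, a potassium level that depolarizes the neurons. Cytosine arabinoside, which kills dividing cells, was present at 10 µM from a medium change 15 to 16 h after plating, and the medium was renewed later in the culture at intervals of 48 h. The exposure to it was thus longer in D5 cells than in D1 cells. Of the 5 samples of the study, 3 were used: 1 Affymetrix array of D5 cells, 1 Affymetrix array of D1 cells, and 1 two-colour array on which D5 (Cy5) was hybridized against D1 (Cy3). The samples with ICRF-193 were not used. Nothing in the labels or methods says that both platforms read RNA of the same cultures. With 1 array per condition there was no replicate, no SD and no test across genes, so each value below describes these arrays, and their number limits the precision.

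A probe set was kept where its signal reached the 40th percentile of its array on D5 or on D1, which was a signal of 16.7 on D5 and 19.2 on D1. This kept 20099 of 31042 probe sets other than controls. The 10669 genes that they name are the genes described here, of 14217 genes with a named probe set, and the other 3548 genes were set aside. Where a signal lay below this floor the floor was put in its place, so that the fold change is a bound, written as "at least". A gene with several probe sets is given by the brightest, the one with the highest mean log2 signal over both arrays.

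Granule cells are the small glutamatergic neurons of the cerebellar cortex. Their progenitors divide in the external layer of the young cerebellum under the influence of Sonic hedgehog, leave the cell cycle, extend parallel fibres and migrate inward, where they form synapses with mossy fibres and receive inhibition from Golgi cells. In culture, cells taken at the age of isolation used here pass through many of these steps within days, and depolarizing potassium is the usual replacement for the input that they have lost. Maturation is known to bring a change of receptor and channel subunits, of synaptic vesicle proteins and of energy metabolism.

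Of the 10669 genes, 769 were 2-fold or more higher on D5 than on D1 (7.21%) and 1050 were 2-fold or more lower (9.84%), while 8850 were past 2-fold in neither direction. The median fold was 2.81 among the higher genes and 2.56 among the lower ones. Changes of 4-fold or more were found in 205 higher and 151 lower genes, and changes of 8-fold or more in 48 higher and 36 lower genes. In 32 genes the signal was below the floor on D1 and 100 or more on D5, and in 24 genes it was below the floor on D5 and 100 or more on D1. The signals were used as deposited, and the D5 array was dimmer, with a median signal of 29.2 on D5 and 32.9 on D1. The median log2 D5/D1 of all genes was accordingly -0.21. When the medians above the floor were made equal, the median log2 D5/D1 moved by 0.18 to -0.02, and the counts became 1004 higher (9.41%) and 730 lower (6.84%). The share of called genes that were higher was then 57.9%, against 42.3% with the signals as deposited, so which direction held more genes depended on the scaling. All 769 higher genes, and 727 of the 1050 lower genes, were called in the same direction under all 4 scalings tried. Each of these scalings raised D5 against D1, so higher calls could hardly be lost and the losses fell on lower calls by construction. The medians of gene lists are therefore given below relative to the median of all genes.

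The only measure of error that these arrays hold is the spread between probe sets of one gene. Over 2733 pairs of such probe sets the SD of log2 D5/D1 was 0.39 at signals under 50, 0.32 at signals of 50 to 200, 0.22 at signals of 200 to 1000 and 0.27 at higher signals. Variation between cultures is not in this spread. Of the genes with at least 2 probe sets above the floor, 114 of 240 higher genes had all of them past 2-fold higher, and 171 of 292 lower genes had all of them past 2-fold lower. Of the genes called in the text, Atp2b3, Bcl2l11, Cdh22, Dlg4, Dnmt3a, Gabrd, Grin1, Grin2b, Kcnj6, Mast3, Mmp9, Necab2, Ntn1, P4ha2, Plin2, Rasgef1b, Rbfox2, Robo2, Scn2b, Sox4, Stx1a and Vcan had at least 1 further probe set that was short of 2-fold, and a further probe set of Sema5a had the opposite sign. That of Gabrd had 18.3 on D5 and 13.8 on D1, and its sign turned only where the floor replaced the D1 signal. Conversely Aqp4, Atp2a2 and Jun were past 2-fold in neither direction but had a further probe set that was past it. The 18 hybridization control probe sets had a median D5/D1 of 0.898. The ratio of the 3' to the 5' control probe sets, which is higher where RNA is more degraded, was 1.75 on D5 and 1.42 on D1 for beta-actin, and 1.02 on D5 and 0.906 on D1 for GAPDH. Its part in the differences between the arrays was not tested.

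The two-colour array gave a second value for 6980 of the genes, as a log ratio. Its base is not given in the sources used here, and only its sign, its size in the deposited units and its rank are used. Of all 6980 genes, 52.1% had a log ratio above 0. Of the higher genes with such a value, 475 of 527 (90.1%) were above 0, and of the lower genes 574 of 657 (87.4%) were below 0. Among genes whose higher signal was 200 or more, the shares were 224 of 231 (97.0%) for higher genes and 256 of 276 (92.8%) for lower ones. The median log ratio was 0.58 among higher genes, -0.36 among lower genes and 0.02 among genes past 2-fold in neither direction. Among the called genes described with their groups below, Alas2, Csf1r, Inhba, Kcnj6, Ntf3, Pax2, Rbfox1, Scn2b, Smo and Tnnc1 lay on the other side of 0 here, as did the genes named at the end for this reason. Genes are not independent replicates, and as a description across all 6980 of them Pearson's r between the platforms was 0.66 and Spearman's rho was 0.64.

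**Figure D1:**
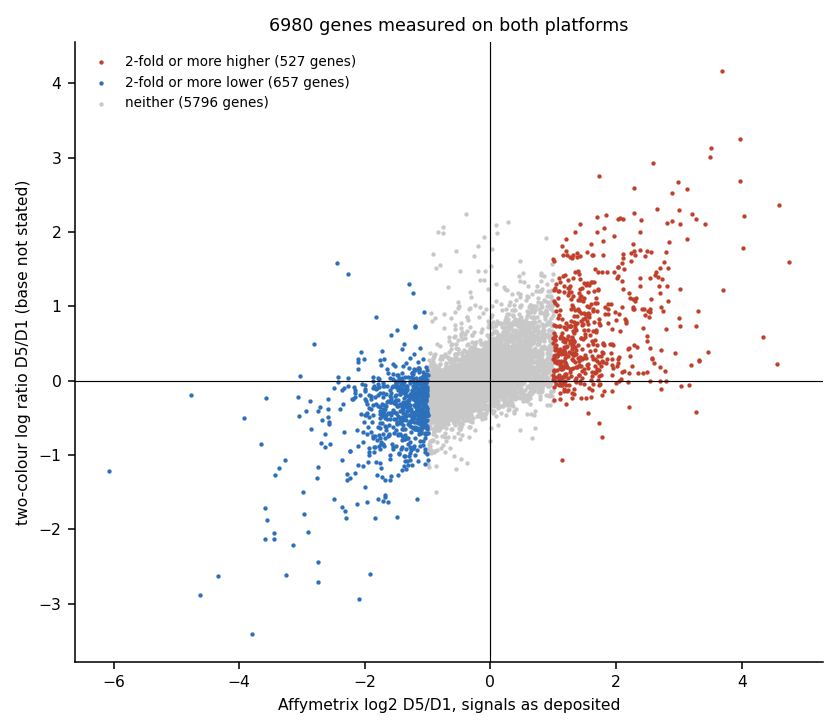
Log2 D5/D1 on the Affymetrix arrays (x axis, signals as deposited) against the two-colour log ratio D5/D1 (y axis, base not stated) for the 6980 genes on both platforms, 1 point per gene. Red points are the 527 higher genes and blue points the 657 lower genes, of which 475 lie above and 574 below the horizontal line at 0.

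The 20 genes with the highest D5/D1, among genes whose higher signal was 100 or more, were led by calcium-binding proteins, receptor subunits and signalling proteins, and 13 of 13 with a two-colour value were above 0 there. Pcp4l1, a relative of the calmodulin regulator Pcp4, had signals of 775 on D5 and 17.4 on D1 (at least 40.3-fold higher), and its other probe set had 294 on D5 and 13.1 on D1. Tnnc2, the calcium sensor of fast muscle fibres, had 519 on D5 and 6.9 on D1 (at least 27-fold), and C1qtnf3, a secreted protein of the C1q family, had 465 on D5 and 18 on D1 (at least 24.2-fold). These were the 3 largest ratios, and on D1 each of these genes was below the floor. Rrad, a small GTPase that restrains voltage-gated calcium channels, had signals of 594 on D5 and 29.5 on D1 (20.1-fold). Camkv, a kinase-like protein without kinase activity, had 316 on D5 and 15.2 on D1 (at least 16.5-fold), and Ccn3, a secreted matricellular protein, had 312 on D5 and 17.8 on D1 (at least 16.2-fold). Plppr4, a membrane protein of glutamatergic synapses, had 1263 on D5 and 80.6 on D1 (15.7-fold). Its other probe set had 475 on D5 and 39 on D1.

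Others of these 20 genes belong to the cytoskeleton, to phosphoinositide signalling and to transcription. Inpp4b, a phosphatase of phosphoinositides, had signals of 271 on D5 and 21.1 on D1 (12.8-fold), and its two-colour log ratio of 4.17 was the highest of all 9635 genes on that array. Tmod1, which caps the slow-growing end of actin filaments, had 426 on D5 and 30.5 on D1 (14-fold) and, by another probe set, 306 on D5 and 18.2 on D1. Ttll7, an enzyme that adds glutamate chains to tubulin, had 316 on D5 and 28.6 on D1 (11-fold). Both act on filaments of the cytoskeleton. The homeobox gene Irx3 had signals of 595 on D5 and 40.4 on D1 (14.7-fold), the transcriptional coactivator Cited4 had 211 on D5 and 2.8 on D1 (at least 11-fold), and the long noncoding RNA Snhg11 had 252 on D5 and 22.6 on D1 (11.2-fold). Necab2, a neuronal calcium-binding protein, had 259 on D5 and 19.8 on D1 by its brightest probe set but 23.2 on D5 and 8.5 on D1 by another, so its probe sets did not give the same call. The other genes among the 20 were the GABA-A receptor subunits Gabrd, Gabrb1, Gabra6 and Gabra5, the adhesion protein Opcml and the collagen Col8a1, which are given with their groups.

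The 20 genes with the lowest D5/D1 included regulators and surface proteins of young neurons and 1 gene of red blood cells, and 13 of 13 with a two-colour value were below 0. Hbb, the beta chain of haemoglobin, had signals of 4.1 on D5 and 2708 on D1 (at least 162-fold lower), by a probe set that may also read its close relatives. Another globin and an enzyme of haem synthesis in red cells, picked out after their values had been seen, were also lower: Hba-a3 had 2.2 on D5 and 155 on D1 (at least 9.26-fold), and Alas2 had 1.6 on D5 and 43.1 on D1 (at least 2.58-fold), though its two-colour log ratio was 0.50. In an extract of many cells, fewer cells of a type and less RNA per cell cannot be told apart, here and in all that follows. Draxin, a secreted repellent of growing axons, had signals of 24.4 on D5 and 704 on D1 (28.9-fold), and Gpc2, a proteoglycan of growing axons, had 12.9 on D5 and 453 on D1 (at least 27.1-fold). Islr2, a membrane protein of axon growth, had 13.4 on D5 and 271 on D1 (at least 16.3-fold), and Cd24, a surface glycoprotein of immature neurons, had 133 on D5 and 1603 on D1 (12.1-fold). These 4 genes encode proteins that meet the outside of the cell.

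Nuclear and calcium-binding proteins were also among the 20 lowest. Tox3, a nuclear protein of the HMG-box family, had signals of 12.5 on D5 and 412 on D1 (at least 24.7-fold), with 16.2 on D5 and 104 on D1 by its other probe set and a two-colour log ratio of -2.89. Gse1 had 10.5 on D5 and 233 on D1 (at least 13.9-fold), and its log ratio of -3.40 was the lowest of all genes on the two-colour array. Eomes, the transcription factor that marks unipolar brush cells, a separate excitatory interneuron of the granular layer, had 20.4 on D5 and 246 on D1 (12-fold). Pcp4, a regulator of calmodulin, had signals of 94.1 on D5 and 1422 on D1 (15.1-fold), while its relative Pcp4l1 led the higher genes. Likewise Necab3 had 6.8 on D5 and 219 on D1 (at least 13.1-fold), while Necab2 was higher by 1 of 2 probe sets. Mfap4, a protein of elastic fibres, had 153 on D5 and 1788 on D1 (11.7-fold), the epidermal growth factor receptor Egfr had 22.8 on D5 and 337 on D1 (14.8-fold), and Ddah2, which breaks down an inhibitor of nitric oxide synthase, had 119 on D5 and 1301 on D1 (10.9-fold). Mast3 was past 2-fold by 1 of 2 probe sets, with 34.7 on D5 and 377 on D1 against 23.2 on D5 and 27.1 on D1, and so was Rasgef1b, whose dimmer probe set had 0.7 on D5 and 31.5 on D1. Nkain3 had 5.0 on D5 and 298 on D1 (at least 17.9-fold), Lgi4, a secreted protein of the LGI family, had 18.2 on D5 and 229 on D1 (12.6-fold), and the chemokine Cxcl6 had 12 on D5 and 199 on D1 (at least 11.9-fold). Sox11 and Igfbpl1 complete the 20 and are given with their groups.

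**Figure D2:**
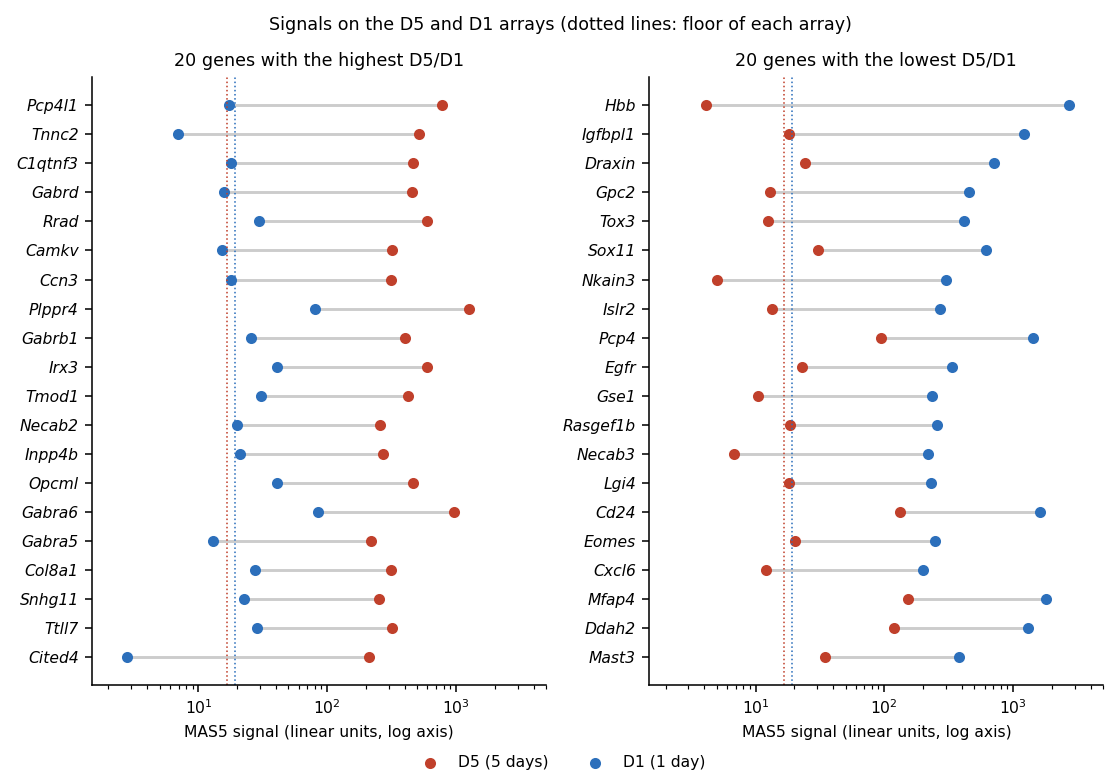
MAS5 signals (x axis, linear units on a log axis) on D5 (red) and D1 (blue) of the 20 genes with the highest and the 20 with the lowest D5/D1, 1 array each, with the floor of each array as a dotted line. In 8 genes of each panel the dimmer of both signals lies below the floor of its array, and the smallest of the 20 folds were 11.0 among the higher genes and 10.9 among the lower ones.

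Lists of genes with a common role, 42 in all, were then examined for a shared direction. A list is called higher or lower where its median lay 0.5 or more on the log2 scale from the median of all genes. By this measure 15 lists were higher and 6 were lower. Scaling D5 by a constant cannot move these relative medians, so of the scalings tried only quantile normalization could. Under it no list changed its sign. With another floor 2 lists lost their call (the Sonic hedgehog pathway and markers of other neurons, at the 60th percentile) and 5 gained one: sodium and calcium channels, growth factor signalling and oligodendrocyte markers at the 60th percentile, and glutamate and GABA supply and metallothioneins at the 20th. A member that passed the floor through only one array could be past 2-fold in only one direction, so these medians and counts are descriptions of the genes that passed. The shares over all genes to set beside each count below are 7.21% higher and 9.84% lower. By this measure the higher lists held receptors, channels, synaptic vesicle proteins, peptides, energy metabolism, matrix, genes best known from muscle, and markers of astrocytes and of mural and meningeal cells. For the muscle genes the median is no support for a direction, since most of the higher members had passed the floor only through D5. The lower lists held cell division, immature neurons, transcription factors of the lineage, the Sonic hedgehog pathway and markers of other neurons.

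**Figure D3:**
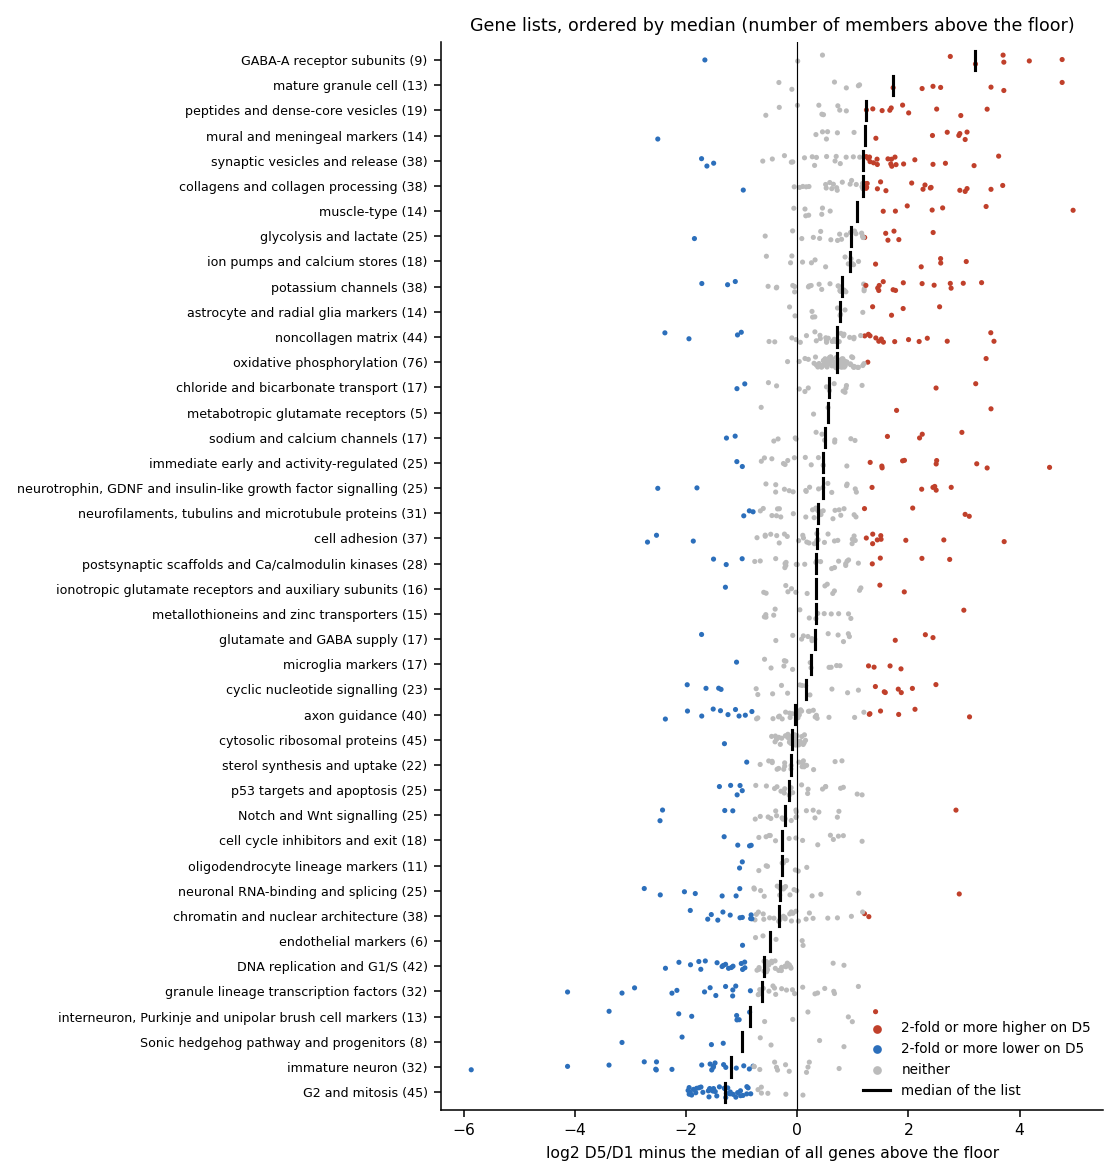
Members of 42 gene lists above the floor (1 point per gene) by log2 D5/D1 minus the median of all genes (x axis), with red for genes 2-fold or more higher on D5, blue for 2-fold or more lower, grey for neither, and a black bar for the median of each list. The medians run between 3.21 for subunits of the GABA-A receptor at the top and -1.30 for genes of G2 and mitosis at the bottom.

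Markers of the mature granule cell were higher on D5 as a list. The list was chosen with earlier results of these data known, so it is no independent check of the label. Its members Grm4, Gabrd and Grin2c passed the floor only through D5 and could be past 2-fold in no other direction. Of 13 markers above the floor, 7 were higher (53.8%, against 7.21% of all genes) and none was lower, with a median of 1.72 relative to all genes, and 10 of 12 were above 0 on the two-colour array. Gabra6, the subunit of the GABA-A receptor found almost only in granule cells, had signals of 963 on D5 and 84.5 on D1 (11.4-fold), and its other probe set gave a log2 D5/D1 of 3.71 against 3.51. Fat2, a large cadherin of parallel fibres, had 393 on D5 and 75.9 on D1 (5.18-fold), and Grm4, a presynaptic glutamate receptor of parallel fibres, had 186 on D5 and 14.7 on D1 (at least 9.71-fold). Other markers of the same list were closer between the arrays. Reln, the secreted protein that guides Purkinje cells, had 2617 on D5 and 3795 on D1. Cbln1, the synaptic organizer of parallel fibres, had 1105 on D5 and 801 on D1, and Cadps2, a priming protein of dense-core vesicles, had 1982 on D5 and 1239.8 on D1. These 3 were past 2-fold in neither direction. Nos1, the nitric oxide synthase of neurons, was below the floor on both arrays.

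Subunits of the GABA-A receptor, the chloride channel that mediates fast inhibition, had the highest median of the 42 lists, at 3.21 relative to all genes, and at 1.99 over 12 members when the floor was lowered to the 20th percentile. Of 9 subunits above the floor 6 were higher and 1 was lower. Gabrb1 had signals of 401 on D5 and 25.6 on D1 (15.7-fold), Gabra4 had 322 on D5 and 40.3 on D1 (8.0-fold), Gabra5 had 217 on D5 and 12.9 on D1 (at least 11.3-fold) and Gabrb2 had 802 on D5 and 137 on D1 (5.84-fold). The delta subunit, which places receptors outside synapses beside the alpha 6 subunit, was read by 3 probe sets of Gabrd that did not give the same call: 452 on D5 and 15.9 on D1 by the one used here, 500.0 on D5 and 10.8 on D1 by another and 18.3 on D5 and 13.8 on D1 by the third. The lower subunit was Gabra2, common in young neurons, with 20.5 on D5 and 74.8 on D1 (3.65-fold). On the two-colour array the log ratios were 3.26 for Gabrb1, 3.13 for Gabra6 and 2.29 for Gabra4, but only 0.22 for Gabrd. Another 4 subunits had probe sets below the floor on both arrays.

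Glutamate receptors as a list did not share the direction of the GABA-A receptor. Of 16 ionotropic subunits and their auxiliary proteins above the floor, 2 were higher (12.5%, against 7.21% of all genes) and 1 lower (6.25%, under the 9.84% of all genes). Their median was 0.34 relative to all genes. The higher ones were Grin1, the obligatory subunit of the NMDA receptor, with 125 on D5 and 51.3 on D1 (2.43-fold), and the kainate receptor subunit Grik1, with 101 on D5 and 30.7 on D1 (3.29-fold). The lower one was Grin2b, the NMDA receptor subunit of young neurons, with 18.2 on D5 and 51.4 on D1 (2.82-fold), and by its other probe set it was past 2-fold in neither direction. Subunits of the AMPA receptor had lower signals on D5 in 3 of 4 cases without reaching 2-fold: Gria2 had 306 on D5 and 408 on D1, Gria3 had 104 on D5 and 129 on D1 and Gria4 had 149 on D5 and 193 on D1. Gria1 had 36.8 on D5 and 9.5 on D1, which with the floor on D1 was at least 1.92-fold and so also short of 2-fold, though past it with the medians made equal. Of the metabotropic receptors, which act through G proteins, 5 were above the floor and 2 were higher: Grm4, given above, and Grm3, with 443 on D5 and 148 on D1 (2.99-fold).

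Potassium channels were the largest channel list and 14 of 38 were higher while 3 were lower, with a median of 0.81 relative to all genes. Auxiliary subunits of the A-type channel, which passes a transient current that delays firing, were among the higher ones. Kcnip4 had signals of 322 on D5 and 37.3 on D1 (8.63-fold) and Kcnip2 had 112 on D5 and 18.9 on D1 (at least 5.84-fold), both calcium sensors that bind the pore subunits. The pore subunit Kcnd2 had 1559 on D5 and 544 on D1 (2.86-fold), while Kcnd3 had 383 on D5 and 380.1 on D1 and the third calcium sensor above the 2-fold line, Kcnip3, had 432 on D5 and 179 on D1 (2.41-fold). Pore subunits of the delayed and A-type Kv1 channels were also higher: Kcna4 had 285 on D5 and 41.5 on D1 (6.87-fold), Kcna6 had 101 on D5 and 21.1 on D1 (4.78-fold) and Kcna1 had 93.7 on D5 and 28.8 on D1 (3.25-fold). Kcnab1, their beta subunit, had 604 on D5 and 102 on D1 (5.9-fold). Kcnk9, a leak channel of granule cells, had 114 on D5 and 27.6 on D1 (4.11-fold). The 3 lower ones were Kcnh2, the channel of the ERG current, with 10.7 on D5 and 63.3 on D1 (at least 3.79-fold), the inward rectifier Kcnj6, with 403 on D5 and 1108 on D1 (2.75-fold), and the leak channel Kcnk2, with 38 on D5 and 94.9 on D1 (2.5-fold). Of 33 potassium channel genes on the two-colour array 23 were above 0.

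Of 17 sodium and calcium channel genes 4 were higher (23.5%, against 7.21% of all genes) and 2 lower (11.8%, near the 9.84% of all genes). Of the sodium channel pore subunits, Scn2a had 235 on D5 and 34.8 on D1 (6.75-fold) and Scn1a had 79.1 on D5 and 18 on D1 (at least 4.12-fold), while Scn3a, the embryonic type, had 23.5 on D5 and 36.3 on D1. The pore subunit Scn8a was below the floor on both arrays. The beta subunit Scn2b had 102 on D5 and 25.7 on D1 (3.98-fold), although its two-colour log ratio was -0.04, and Nalcn, the sodium leak channel, had 206 on D5 and 77 on D1 (2.67-fold). Lower were the calcium channel subunits Cacna2d1, with 57 on D5 and 159 on D1 (2.79-fold), and Cacna1d, an L-type pore, with 39.5 on D5 and 98.8 on D1 (2.5-fold). The other L-type pore, Cacna1c, had 116 on D5 and 137 on D1.

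Proteins of synaptic vesicles and of transmitter release were higher as a list, with 19 of 38 members higher and 3 lower, a median of 1.18 relative to all genes, and 30 of 36 above 0 on the two-colour array. Rab3b, a small GTPase of vesicles, had signals of 242 on D5 and 22.7 on D1 (10.7-fold), and Dnm1, which pinches vesicles off the membrane, had 821 on D5 and 104 on D1 (7.86-fold). Nsf, the ATPase that takes SNARE complexes apart, had 884 on D5 and 271 on D1 (3.26-fold), Cplx1, which clamps SNARE complexes, had 2005 on D5 and 534 on D1 (3.76-fold), and Syn1, which tethers vesicles, had 356 on D5 and 126 on D1 (2.82-fold). These proteins serve the tethering, fusion and retrieval of vesicles. The SNARE protein Vamp2 had 525 on D5 and 177 on D1 (2.97-fold) and its partner Stx1a had 189.7 on D5 and 88.3 on D1 (2.15-fold), while the third partner, Snap25, had 3661 on D5 and 2635 on D1 and was past 2-fold in neither direction. The lower members were Slc17a6, the vesicular glutamate transporter of young granule cells, with 7.5 on D5 and 63.5 on D1 (at least 3.8-fold), the complexin Cplx2, with 23.5 on D5 and 83.6 on D1 (3.56-fold), and Syngr1, with 18.1 on D5 and 59.2 on D1 (3.27-fold). The complexins Cplx1 and Cplx2 were thus past 2-fold in opposite directions. Over 45 members, with the floor at the 20th percentile, the median was 0.79.

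Peptides and proteins of dense-core vesicles, the larger vesicles that store peptide transmitters, were higher in 10 of 19 members and lower in none, with a median of 1.24 relative to all genes. The granins, which form the core of these vesicles, were Scg2, with 1484 on D5 and 460.1 on D1 (3.22-fold), Chgb, with 971 on D5 and 279 on D1 (3.48-fold), and Chga, with 260.3 on D5 and 127 on D1 (2.05-fold). Nptx1, a secreted pentraxin that gathers glutamate receptors, had 327 on D5 and 35.3 on D1 (9.25-fold), and Ptprn2, a membrane protein of these vesicles, had 128 on D5 and 15.6 on D1 (at least 6.66-fold). The opioid peptide precursor Penk had 199.7 on D5 and 40.5 on D1 (4.93-fold) and neuropeptide Y, Npy, had 85.5 on D5 and 31.1 on D1 (2.75-fold). The processing enzyme Cpe had 4355 on D5 and 3694 on D1.

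Postsynaptic scaffolds and calcium-dependent kinases gave no common direction, with 4 of 28 higher (14.3%, against 7.21% of all genes) and 3 lower (10.7%, near the 9.84% of all genes). The scaffold proteins Dlgap1, with 693 on D5 and 119.5 on D1 (5.8-fold), and Dlg4, known as PSD-95, with 302 on D5 and 137 on D1 (2.21-fold), were higher, and so were the kinase subunits Camk2b, with 874 on D5 and 213 on D1 (4.1-fold), and Camk2d, with 2857 on D5 and 1169.9 on D1 (2.44-fold). Dlg2 was lower, with 16.7 on D5 and 46.7 on D1 (2.8-fold). Camkk1 and Camkk2, the kinases that switch on other calmodulin kinases, were both lower, with 43.8 on D5 and 100.4 on D1 (2.29-fold) and with 8.8 on D5 and 54.7 on D1 (at least 3.28-fold). Of 23 genes of cyclic nucleotide signalling 7 were higher (30.4%, against 7.21% of all genes) and 4 lower (17.4%, against 9.84% of all genes). Among the phosphodiesterases, which break down cyclic nucleotides, Pde4b had 839.8 on D5 and 172 on D1 (4.89-fold) and Pde10a had 349.8 on D5 and 114 on D1 (3.06-fold), while Pde3b had 25.2 on D5 and 115 on D1 (4.55-fold). The adenylyl cyclases Adcy8, with 64.7 on D5 and 20.4 on D1 (3.17-fold), and Adcy9, with 44.1 on D5 and 10.0 on D1 (at least 2.3-fold), were higher.

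Chloride and bicarbonate transporters were past 2-fold in both directions, with 2 of 17 higher and 2 lower (11.8% each, against 7.21% and 9.84% of all genes). Slc12a5, the potassium chloride cotransporter that lowers chloride inside neurons, had signals of 201 on D5 and 25 on D1 (8.02-fold), while Slc12a2, the importer, had 538 on D5 and 392 on D1. On the two-colour array both were above 0, with log ratios of 0.84 for Slc12a5 and 0.72 for Slc12a2. Slc4a10, a neuronal bicarbonate transporter, had 295 on D5 and 60.2 on D1 (4.89-fold). The lower ones were Slc12a7, another potassium chloride cotransporter, with 24.2 on D5 and 53.7 on D1 (2.22-fold), and Car8, a protein of the carbonic anhydrase family known from Purkinje cells, with 24 on D5 and 58.7 on D1 (2.45-fold). Of the pumps and calcium stores 5 of 18 were higher and none lower, with a median of 0.94. The beta subunits of the sodium pump were Atp1b1, with 3809.6 on D5 and 736 on D1 (5.18-fold), and Atp1b2, with 654 on D5 and 126 on D1 (5.19-fold), while Atp1b3 had 862 on D5 and 796 on D1. Itpr1, the calcium release channel that opens to inositol trisphosphate, had 1436 on D5 and 201 on D1 (7.13-fold), and Atp2b3, a calcium pump of the plasma membrane, had 483 on D5 and 119 on D1 (4.07-fold). The pump of the endoplasmic reticulum, Atp2a2, had 824 on D5 and 1033 on D1 by one probe set and 916 on D5 and 443 on D1 by another, which were of opposite sign.

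Genes of oxidative phosphorylation, the chain of mitochondrial complexes that makes ATP, were shifted together by a small amount. Only 2 of 76 were past 2-fold higher and none lower, but the median was 0.71 relative to all genes, and 48 of 50 (96.0%) were above 0 on the two-colour array, against 52.1% of all genes. With the medians above the floor made equal, 7 of the 76 were past 2-fold higher. Typical members were Ndufs1 of complex I, with 701 on D5 and 449.9 on D1, Cox5b of complex IV, with 2518 on D5 and 1492 on D1, and Atp5f1b of the ATP synthase, with 3614 on D5 and 2247 on D1. Complex II, which also serves the citric acid cycle, had 885 on D5 and 584 on D1 for Sdha and 1041 on D5 and 609 on D1 for Sdhd. Of the 2 past 2-fold, Ndufb6 of complex I had 1409 on D5 and 674 on D1 (2.09-fold), and Cox6a2, the form of a complex IV subunit known from heart and muscle, had 248 on D5 and 27.1 on D1 (9.13-fold), while its common form Cox6a1 had 2604 on D5 and 1689.7 on D1. The subunits encoded in mitochondrial DNA, COX1 and COX2, lay close between the arrays, with 8523 on D5 and 8957 on D1 for COX1 and 7659 on D5 and 7934 on D1 for COX2.

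Glycolysis and lactate metabolism were higher as a list, with 6 of 25 members higher and 1 lower, a median of 0.96, and 17 of 24 above 0 on the two-colour array. With the medians above the floor made equal, 12 of the 25 were higher. Eno2, the neuronal enolase, had signals of 856 on D5 and 181 on D1 (4.72-fold). All 3 measured subunits of phosphofructokinase, which sets the rate of glycolysis, had higher signals on D5: Pfkp had 1718 on D5 and 593 on D1 (2.9-fold), Pfkm had 914 on D5 and 340.1 on D1 (2.69-fold) and Pfkl had 67.7 on D5 and 34.6 on D1, the last one short of 2-fold. Gpi had 1675 on D5 and 641 on D1 (2.61-fold), and Ldha, which makes lactate, had 2169.9 on D5 and 1098 on D1. Hk2, the hexokinase of dividing cells, was the lower one, with 15 on D5 and 69.4 on D1 (at least 4.16-fold), while the hexokinase of the adult brain, Hk1, had 442 on D5 and 228 on D1.

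Genes best known from muscle were above the floor in 14 of 39 cases with a probe set. Of these 7 were past 2-fold higher and none lower, but 5 of the 7 (Tnnc2, Actn2, Tcap, Tnnc1 and Ckmt2) had passed the floor only through D5, so that they could be past 2-fold in no other direction, and the count and median are no support for a direction of the list. Beside Tnnc2 and Cox6a2 the higher ones were Actn2, an actinin of muscle and of dendritic spines, with 102 on D5 and 1.0 on D1 (at least 5.31-fold), Tcap, the titin cap protein, with 89.5 on D5 and 4.2 on D1 (at least 4.66-fold), Tnnc1, the troponin C of slow muscle and heart, with 65.6 on D5 and 17.9 on D1 (at least 3.42-fold), Ckmt2, a mitochondrial creatine kinase, with 56.6 on D5 and 7.3 on D1 (at least 2.95-fold), and Acta1, skeletal alpha actin, with 85.1 on D5 and 33.6 on D1 (2.53-fold). Over the whole list 6 of 11 were above 0 on the two-colour array (54.5%, near the 52.1% of all genes). Of the higher ones the log ratios there were 1.59 for Tnnc2, 0.96 for Actn2, 0.76 for Ckmt2, 0.33 for Tcap, 0.21 for Cox6a2 and -0.19 for Tnnc1. The proteins that define contracting muscle were below the floor on both arrays, among them Ckm, Mb, Myl1, Myl2, Ttn and Neb. Myh1, a myosin of fast muscle, had 433 on D5 and 449 on D1. In which cells they were expressed was not tested.

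Immediate early and activity-regulated genes are those that neurons switch on after calcium entry. Of 25 above the floor 10 were higher (40%, against 7.21% of all genes) and 2 lower (8%, under the 9.84% of all genes). Their median was 0.47 relative to all genes. Among the higher ones Rgs4, which turns off G protein signals, had 826 on D5 and 102 on D1 (8.13-fold), the neurotrophin Bdnf had 103 on D5 and 21.1 on D1 (4.9-fold), the peptide precursor Vgf had 460.4 on D5 and 184 on D1 (2.5-fold) and the activin subunit Inhba had 74.9 on D5 and 22.7 on D1 (3.3-fold). The immediate early transcription factor Nr4a3 had 433 on D5 and 201 on D1 (2.15-fold), and the clock gene Per1 had 92.1 on D5 and 37 on D1 (2.49-fold), while Nptx1, Rrad, Scg2 and Penk are given above. Other immediate early transcription factors were past 2-fold in neither direction: Fos had 1028 on D5 and 857 on D1, Jun had 261 on D5 and 453 on D1, Junb had 66.6 on D5 and 79.6 on D1 and Egr1 had 56.3 on D5 and 46.9 on D1. Lower were Atf3, with 11.4 on D5 and 40.9 on D1 (at least 2.45-fold), and Ier2, with 113 on D5 and 259 on D1 (2.29-fold). Arc, Egr3, Egr4, Fosb and Fosl2 were below the floor on both arrays.

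Of 25 growth factors, binding proteins and related genes 6 were higher (24%, against 7.21% of all genes) and 2 lower (8%, under the 9.84% of all genes). The binding proteins of insulin-like growth factors Igfbp2, with 1203 on D5 and 249.9 on D1 (4.81-fold), Igfbp3, with 114 on D5 and 17.3 on D1 (at least 5.91-fold), and Igfbp7, with 1076 on D5 and 263 on D1 (4.09-fold), were higher. The growth factor Igf2 was lower, with 13 on D5 and 109.6 on D1 (at least 6.56-fold), and so was the neurotrophin Ntf3, with 32.7 on D5 and 132 on D1 (4.03-fold), though its two-colour log ratio was 0.29. Fgf14, an intracellular regulator of sodium channels, had 107 on D5 and 22.7 on D1 (4.71-fold). For neurotrophins the direction was thus opposite in Bdnf and Ntf3 on the Affymetrix arrays.

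Transcription factors of the granule lineage were lower as a list. Of 32 above the floor 13 were lower (40.6%, against 9.84% of all genes) and none higher, with a median of -0.64 relative to all genes. Mycn, the target of Sonic hedgehog that drives progenitor division, had signals of 33.3 on D5 and 341 on D1 (10.3-fold), Bhlhe22 had 256 on D5 and 2249 on D1 (8.77-fold), and Nhlh1, a helix-loop-helix protein of newborn neurons, had 216 on D5 and 1185 on D1 (5.5-fold). Sox11 had 30.3 on D5 and 612 on D1 (20.2-fold) and Sox4 had 559.8 on D5 and 1913 on D1 (3.42-fold). Barhl1, a homeobox gene of the lineage, had 84.7 on D5 and 269.6 on D1 (3.18-fold), Pax6 had 640.2 on D5 and 1804 on D1 (2.82-fold) and Zic1 had 184 on D5 and 457 on D1 (2.48-fold). Further members of the list were past 2-fold in neither direction. Among them Neurod1 had 3072 on D5 and 5654 on D1, and Meis1 had 1229 on D5 and 1882 on D1. En2 had 381 on D5 and 466 on D1 and Zic2 had 126 on D5 and 136 on D1. Of the Mef2 factors, which act on activity-dependent genes, Mef2a had 494 on D5 and 442 on D1, Mef2c had 154 on D5 and 113 on D1 and Mef2d had 98.2 on D5 and 80.4 on D1. Id2 was lower as deposited, with 2166 on D5 and 4479 on D1 (2.07-fold), but not with the medians made equal.

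Components of Sonic hedgehog and Notch signalling followed the progenitor factors in part. Of 8 hedgehog and progenitor genes above the floor 4 were lower and none higher, with a median of -1.0, which was -0.43 over 6 genes when the floor was raised to the 60th percentile. Gli2, the activator of hedgehog targets, had 18.5 on D5 and 89.7 on D1 (4.85-fold), Smo, the signal transducer, had 20.4 on D5 and 68.6 on D1 (3.36-fold), and Ccnd2, the cyclin of granule progenitors, had 675 on D5 and 1960.1 on D1 (2.9-fold). Gli1, the most direct readout of the pathway, was below the floor on both arrays. In the Notch pathway Dll3 had 1.1 on D5 and 103 on D1 (at least 6.19-fold), Mfng, an enzyme that modifies Notch, had 16.1 on D5 and 107 on D1 (at least 6.38-fold), and Hes6 had 396 on D5 and 1021 on D1 (2.58-fold), whereas Hes1, a direct Notch target, had 43.8 on D5 and 40.5 on D1. Of 25 Notch and Wnt genes 4 were lower and 1 higher, Dkk3, a secreted protein of the Dickkopf family, with 1119 on D5 and 178 on D1 (6.27-fold).

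Genes of the immature neuron had the second lowest median of the 42 lists, at -1.19 relative to all genes. Of 32 above the floor 20 were lower (62.5%) and none higher, and of 22 on the two-colour array 1 was above 0. Igfbpl1, a secreted protein of newborn neurons, had 18.2 on D5 and 1223 on D1 (67.2-fold), with a two-colour log ratio of -1.21. Cntn2, an adhesion protein of growing parallel fibres, had 43.5 on D5 and 290.1 on D1 (6.67-fold), Rnd2, a GTPase of migrating neurons, had 118 on D5 and 787 on D1 (6.69-fold), and Elavl2, an RNA-binding protein, had 114 on D5 and 883 on D1 (7.77-fold). Gap43, the membrane protein of growth cones, had 1310.3 on D5 and 4212 on D1 (3.21-fold), and Unc5c and Cxcr4, receptors that steer migrating granule cells, had 171 on D5 and 563 on D1 (3.29-fold) and 92.5 on D5 and 260.0 on D1 (2.81-fold). Stmn2, which frees tubulin from microtubules, was at the threshold, with 2056 on D5 and 4112 on D1 (2.0-fold), and was not called with the medians made equal. The collapsin response mediators Dpysl2, Dpysl5 and Crmp1 were past 2-fold in neither direction, with 2509.8 on D5 and 3199 on D1 for Dpysl2, 359 on D5 and 356 on D1 for Dpysl5 and 1468 on D5 and 1509 on D1 for Crmp1, while Dpysl3 had 58.8 on D5 and 193 on D1 (3.28-fold).

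Within the cytoskeleton the tubulins and neurofilaments separated by isotype. Tuba4a had signals of 1404 on D5 and 199.7 on D1 (7.03-fold), Tubb4a had 618 on D5 and 169 on D1 (3.66-fold) and Nefl, the light neurofilament, had 532 on D5 and 71.8 on D1 (7.4-fold). Nefm, the medium neurofilament, had 268 on D5 and 148 on D1. Tubb2b, the tubulin of migrating neurons, had 1859 on D5 and 4177 on D1 (2.25-fold) and Tubb3 had 785 on D5 and 1645 on D1 (2.1-fold), but neither was called with the medians made equal, under which Nefm was. Among the proteins that bind microtubules, Map2 had 742 on D5 and 1307 on D1, Mapt had 2207 on D5 and 1842 on D1 and Map1b had 3938 on D5 and 3422 on D1, all past 2-fold in neither direction.

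Genes of cell division were lower in both lists that describe it. Of 45 genes of G2 and mitosis above the floor 39 were lower (86.7%) and none higher, with a median of -1.30 relative to all genes. With the medians above the floor made equal, 34 of the 45 were lower. Of 42 genes of DNA replication and of the step into S phase 17 were lower (40.5%) and none higher, with a median of -0.60. Ect2, which places the cleavage furrow, had signals of 41.2 on D5 and 185 on D1 (4.5-fold), Cks2, a partner of cyclin-dependent kinases, had 103 on D5 and 457 on D1 (4.44-fold), and Top2a, the topoisomerase of dividing cells, had 62.1 on D5 and 272 on D1 (4.38-fold). Kif11, the motor that separates spindle poles, had 28.1 on D5 and 121 on D1 (4.3-fold), and Plk1, a kinase of mitosis, had 26.4 on D5 and 104 on D1 (3.92-fold). In replication Gins1 and Mcm3, parts of the helicase that opens DNA, had 15.8 on D5 and 84.2 on D1 (at least 5.04-fold) and 18.1 on D5 and 71.2 on D1 (3.93-fold), and Mcm7 had 112 on D5 and 489 on D1 (4.36-fold). Pcna, the sliding clamp, had 854 on D5 and 1628 on D1 and was short of 2-fold. On the two-colour array 6 of 32 genes of G2 and mitosis and 5 of 32 genes of replication were above 0, against 52.1% of all genes.

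Factors that hold cells out of the cycle did not mirror this. Of 18 inhibitors and exit genes above the floor none was higher, and 4 were lower. Cdkn1b, the main inhibitor of cyclin-dependent kinases in granule cells, had 1997 on D5 and 2343 on D1, and Cdkn1a had 166 on D5 and 85.2 on D1, which was past 2-fold only with the medians made equal. Rb1, the retinoblastoma protein, had 184 on D5 and 377 on D1 (2.05-fold, a call lost with the medians made equal), and its relative Rbl1 had 19.9 on D5 and 57.1 on D1 (2.87-fold). Cdk4, the kinase that phosphorylates it, had 367 on D5 and 1171 on D1 (3.19-fold), while Ccnd1, a cyclin partner of that kinase, had 290.3 on D5 and 187 on D1.

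The promoters of the genes of cell division carry known motifs, and sequences of the 3 with the largest change in each list, among members with a sequence, are shown for that reason. Sequences are from RefSeq, build GRCr8, and run 5′ to 3′ on the strand of the gene, from 250 bases before its annotated start to 50 bases after; 47 of 55 genes of G2 and mitosis and 36 of 46 genes of replication had one. In the first 3, capitals mark the cell cycle homology region (CHR, searched as TTTGAA or TTCGAA) and CCAAT, in the last 3 the site of E2F (TTTGGCGC, TTTCCCGC, TTTGGCGG or TTTCGCGC), each on either strand.
Ect2, chr2:111966577-111966876, minus strand: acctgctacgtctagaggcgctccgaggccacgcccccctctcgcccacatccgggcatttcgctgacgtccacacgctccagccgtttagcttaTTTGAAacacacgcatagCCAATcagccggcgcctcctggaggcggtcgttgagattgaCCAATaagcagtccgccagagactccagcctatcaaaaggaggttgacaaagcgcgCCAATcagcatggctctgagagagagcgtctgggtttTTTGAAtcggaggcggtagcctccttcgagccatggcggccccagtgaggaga
Cks2, chr17:13727470-13727769, minus strand: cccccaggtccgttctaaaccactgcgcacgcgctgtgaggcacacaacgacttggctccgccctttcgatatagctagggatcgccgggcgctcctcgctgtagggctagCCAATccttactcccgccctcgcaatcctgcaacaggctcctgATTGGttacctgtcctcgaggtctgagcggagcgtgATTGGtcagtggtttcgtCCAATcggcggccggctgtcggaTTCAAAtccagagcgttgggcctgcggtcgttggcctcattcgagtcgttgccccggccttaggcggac
Top2a, chr10:84473044-84473343, minus strand: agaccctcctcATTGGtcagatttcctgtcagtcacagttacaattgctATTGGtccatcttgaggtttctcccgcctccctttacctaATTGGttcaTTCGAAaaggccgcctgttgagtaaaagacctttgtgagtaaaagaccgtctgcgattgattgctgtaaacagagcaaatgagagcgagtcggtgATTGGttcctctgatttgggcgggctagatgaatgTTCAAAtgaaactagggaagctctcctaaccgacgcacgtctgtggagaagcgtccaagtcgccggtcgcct
Gins1, chr3:160184670-160184969, plus strand: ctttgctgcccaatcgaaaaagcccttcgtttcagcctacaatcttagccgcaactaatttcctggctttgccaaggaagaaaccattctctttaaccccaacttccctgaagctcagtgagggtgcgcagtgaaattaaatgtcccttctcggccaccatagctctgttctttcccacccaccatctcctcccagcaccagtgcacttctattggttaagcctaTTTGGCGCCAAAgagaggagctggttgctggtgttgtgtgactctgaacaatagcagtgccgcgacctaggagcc
Mcm7, chr12:22163129-22163428, minus strand: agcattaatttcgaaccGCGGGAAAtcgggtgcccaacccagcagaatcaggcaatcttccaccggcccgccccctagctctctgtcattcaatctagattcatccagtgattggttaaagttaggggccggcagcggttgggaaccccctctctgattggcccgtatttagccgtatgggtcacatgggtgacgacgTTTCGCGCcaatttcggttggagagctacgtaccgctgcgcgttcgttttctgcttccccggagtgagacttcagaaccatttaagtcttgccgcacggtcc
Mcm3, chr9:30733697-30733996, minus strand: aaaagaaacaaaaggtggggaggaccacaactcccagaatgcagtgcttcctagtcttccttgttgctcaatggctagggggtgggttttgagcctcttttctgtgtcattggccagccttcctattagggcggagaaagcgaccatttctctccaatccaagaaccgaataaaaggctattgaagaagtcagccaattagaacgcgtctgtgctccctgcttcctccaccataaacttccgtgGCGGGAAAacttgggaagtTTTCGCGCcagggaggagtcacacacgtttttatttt
In Cks2 a CHR match began 19 bases before the start, and CCAAT matches began 42, 60, 96 and 139 bases before it. In Gins1 both E2F matches overlapped, beginning 25 and 21 bases before the start, since they are read on opposite strands of the same stretch. A match describes these letters only and is no evidence that a factor was bound.

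CCAAT alone was frequent in both lists of cell division, in 37 of 47 promoters (78.7%) of G2 and mitosis and in 21 of 36 (58.3%) of replication, against 37.7% of all promoters. It was not particular to them, since the sterol synthesis list, which was given no direction, held it in 15 of 19 promoters (78.9%). CHR and CCAAT together were in 31 of 47 promoters of G2 and mitosis genes (66.0%), against 7.83% of all 27457 promoters, and in 28 of these 31 a CHR match began within 100 bases before the start or after it. Matches of both motifs overlapped in 2 of the 31. At least 2 CCAAT matches were found in 27 of the 47 (57.4%), against 12 of 36 (33.3%) in the replication list and 11.5% of all promoters. E2F was in 1 of the 47, but in 20 of 36 promoters of the replication list (55.6%), against 2.31% of all promoters, and in 4 of these 20 matches overlapped each other. CHR and CCAAT together were in 5 of those 36 (13.9%). Over all genes called lower, of which 856 had a promoter sequence, CHR and CCAAT were together in 10.9% and E2F in 7.13%. Over the 601 genes called higher the shares were 3.33% and 3.0%, and over the 7449 genes past 2-fold in neither direction 5.01% and 4.20%. Lower members of both lists are counted among the lower genes. Of 14 replication genes that were lower and had a sequence, 9 held an E2F match (64.3%), and of 33 such genes of G2 and mitosis, 21 held CHR and CCAAT (63.6%).

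**Figure D4:**
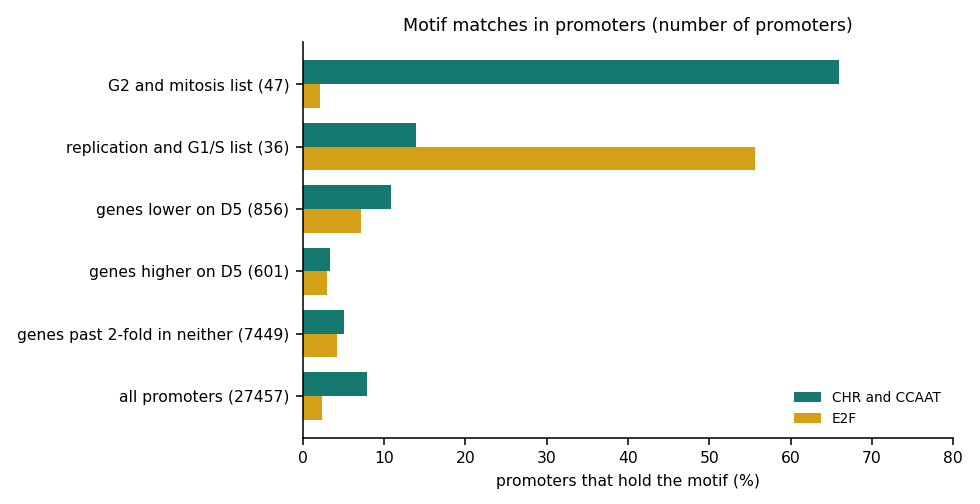
Share of promoters (x axis, %) that hold CHR and CCAAT together (green) or E2F (yellow) in the lists of cell division, in genes called lower, higher or neither on D5, and in all promoters, with the number of promoters in brackets. CHR and CCAAT reach 66.0% in the G2 and mitosis list and E2F reaches 55.6% in the replication list, against 7.83% and 2.31% of all promoters.

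Proteins of chromatin were lower in 11 of 38 cases and higher in 2, and those of RNA binding and splicing lower in 7 of 25 and higher in 1. Ezh2, the methyltransferase of Polycomb in dividing cells, had 64.5 on D5 and 200.3 on D1 (3.11-fold), Hmgn2, a nucleosome-binding protein, had 1079.5 on D5 and 2872 on D1 (2.66-fold), and Lmnb1, a lamin of the nuclear envelope, had 272 on D5 and 914 on D1 (3.37-fold). Satb1, a chromatin organizer, had 227 on D5 and 798 on D1 (3.52-fold). Of the topoisomerases, Top1 had 318 on D5 and 596 on D1, Top2b, the type of neurons, had 900.5 on D5 and 1388 on D1, and Top3b had 73 on D5 and 97.5 on D1, all short of 2-fold, so only Top2a was past it. The Rbfox splicing factors differed in direction: Rbfox3, known as NeuN, had 78.8 on D5 and 501 on D1 (6.36-fold), and Rbfox2 had 312 on D5 and 738 on D1 (2.36-fold), while Rbfox1 had 832 on D5 and 127 on D1 (6.53-fold), though with a two-colour log ratio of -0.12. Of 16 RNA-binding proteins on the two-colour array 3 were above 0.

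Of 37 adhesion genes 9 were higher (24.3%, against 7.21% of all genes) and 3 lower (8.11%, under the 9.84% of all genes). Of 40 guidance genes 6 were higher (15.0%) and 10 lower (25.0%). The lists had medians of 0.35 and -0.04 relative to all genes. Opcml, an IgLON protein, had 462 on D5 and 40.4 on D1 (11.4-fold), and its relatives Lsamp and Ntm had 399.5 on D5 and 169.8 on D1 (2.35-fold) and 694 on D5 and 312 on D1 (2.22-fold). Cdh13 had 543 on D5 and 101 on D1 (5.39-fold) and Cdh22 had 362 on D5 and 108 on D1 (3.36-fold), while Cdh10 had 42.7 on D5 and 180.0 on D1 (4.22-fold). The contactin Cntn6 had 13.6 on D5 and 125 on D1 (at least 7.46-fold) and Cntn4 had 42.6 on D5 and 11.8 on D1 (at least 2.22-fold). The guidance cue Ntn1 and its receptors Dcc and Unc5c were all lower, with 27.1 on D5 and 162 on D1 (5.97-fold) for Ntn1 and 23.4 on D5 and 64 on D1 (2.74-fold) for Dcc. Plxnc1, a semaphorin receptor, had 64.8 on D5 and 294 on D1 (4.53-fold), and the semaphorin Sema6a had 174 on D5 and 660.2 on D1 (3.79-fold). Epha5, a receptor of ephrins, had 206 on D5 and 27.8 on D1 (7.43-fold), and Sema5a had 84.3 on D5 and 22.4 on D1 (3.76-fold).

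Collagens and the enzymes that process them were higher in 17 of 38 cases (44.7%) and lower in 1, with a median of 1.18 relative to all genes, and 22 were higher with the medians made equal. The fibril-forming collagens Col1a1, Col1a2 and Col3a1 had 307 on D5 and 43.6 on D1 (7.03-fold), 774 on D5 and 108 on D1 (7.2-fold) and 841 on D5 and 128 on D1 (6.58-fold). The short-chain collagens Col8a1 and Col8a2 had 311 on D5 and 27.7 on D1 (11.2-fold) and 186 on D5 and 15.8 on D1 (at least 9.71-fold). Enzymes that hydroxylate and crosslink collagen were also higher, P4ha2 with 232 on D5 and 54.5 on D1 (4.26-fold) and Lox with 115 on D5 and 25 on D1 (4.6-fold). Of the other matrix genes 14 of 44 were higher and 4 lower. Fn1, fibronectin, had 1132 on D5 and 201 on D1 (5.63-fold) and Fbln2, a fibulin, had 200.5 on D5 and 19.9 on D1 (10.1-fold), while the proteases Mmp9 and Mmp3 had 4.6 on D5 and 100.3 on D1 (at least 6.01-fold) and 11.1 on D5 and 74.3 on D1 (at least 4.45-fold). Vcan, the proteoglycan of young brain matrix, had 146 on D5 and 355 on D1 (2.43-fold).

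Markers of some other cell types were higher on D5 as well. Markers of mural and meningeal cells, some of which are collagens, were higher in 7 of 14 cases and lower in 1, with a summed signal of 4710 on D5 and 1060.5 on D1. Outside the collagens and fibronectin, Tagln and Myh11, proteins of smooth muscle, had 969 on D5 and 149 on D1 (6.5-fold) and 95 on D5 and 20.3 on D1 (4.68-fold), but the pericyte markers Pdgfrb and Rgs5 were near the floor, with 24.3 on D5 and 17.7 on D1 for Pdgfrb and 27.8 on D5 and 25.4 on D1 for Rgs5. Markers of astrocytes and radial glia were higher in 4 of 14 cases and lower in none, with a median of 0.77 and a summed signal of 7922 on D5 and 5814 on D1. S100b had 339 on D5 and 121 on D1 (2.81-fold) and Ntsr2 had 98.2 on D5 and 10.7 on D1 (at least 5.11-fold), while Gfap, the intermediate filament of astrocytes, had 1512 on D5 and 1016 on D1, and Aqp4 had 524 on D5 and 621 on D1. Slc1a2 and Gjb6 were below the floor on both arrays. The part of these cells in the higher matrix and metabolic genes was not tested.

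The remaining cell types were divided. Markers of oligodendrocytes were lower in 2 of 11 cases (18.2%, against 9.84% of all genes) and higher in none, with Mbp at 1129.6 on D5 and 1547 on D1 and the progenitor marker Pdgfra at 105 on D5 and 241 on D1 (2.29-fold), and a summed signal of 2124 on D5 and 3157 on D1. Markers of microglia were higher in 4 of 17 (23.5%, against 7.21% of all genes) and lower in 1, with Lyz2 at 474 on D5 and 150.0 on D1 (3.16-fold) and Csf1r at 48 on D5 and 118 on D1 (2.46-fold), and a summed signal of 2599 on D5 and 2099.5 on D1. Of 6 endothelial markers above the floor 1 was lower, Cldn5, with 7.3 on D5 and 38.1 on D1 (at least 2.28-fold), and Pecam1, Vwf and Tie1 were below the floor on both arrays, and the summed signal was 107.7 on D5 and 177.6 on D1. Markers of other cerebellar neurons were lower in 7 of 13 cases and higher in 1, with a median of -0.86 (-0.42 over 6 genes when the floor was raised to the 60th percentile) and a summed signal of 1011 on D5 and 1234 on D1. The two-colour array did not show this, with 5 of 9 above 0 (55.6%). Of these the Purkinje cell genes Pcp2 and Foxp2 had 20.5 on D5 and 104 on D1 (5.05-fold) and 6.4 on D5 and 41 on D1 (at least 2.46-fold), and Pax2, of young interneurons, had 17.9 on D5 and 42.6 on D1 (2.38-fold), while Gad1, the enzyme that makes GABA, had 526 on D5 and 321 on D1. Calb1, of the same list, had 205 on D5 and 119 on D1 (1.72-fold). Pvalb, the member that was higher, had 44.2 on D5 and 14.8 on D1 (at least 2.3-fold).

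Pairs of related genes of which 1 is known to be used early or broadly and the other late or in neurons were then set side by side. Both members were above the floor in 30 of 40 pairs, of which some share a gene, and no level of one gene is set against that of another. In 25 of the 30 pairs log2 D5/D1 was higher for the late member than for the early one, and in 20 of them by 2-fold or more, against 2 pairs that differed by 2-fold or more in the other direction. On the two-colour array the late member had the higher log ratio in 13 of 17 pairs. Differences there ran from -1.20 for Prkar2b over Prkar2a to 3.24 for Gabra6 over Gabra2, with 0.12 for Slc12a5 over Slc12a2. As members were chosen with earlier results of these data known, these counts describe the chosen pairs and do not test a switch. In 3 pairs the late member was 2-fold or more higher and the early one 2-fold or more lower. These were Gabra6 and Gabra2 with log2 values of 3.51 and -1.87, the vesicular glutamate transporters Slc17a7 and Slc17a6 with 2.24 and -1.93, and the Slit receptors Robo2 and Robo1 with 1.10 and -1.14, though Robo1 was not called with the medians made equal. The values of Slc17a6 and Robo1 are bounds, since both lay below the floor on D5. Two-colour log ratios of the early members were near 0, at -0.10 for Gabra2, -0.19 for Slc17a6 and -0.12 for Robo1. Those of the late members were 3.13 for Gabra6, 1.61 for Slc17a7 and 0.74 for Robo2. In other pairs only 1 member was past 2-fold. The DNA methyltransferases Dnmt3a and Dnmt1 had 1.08 and -0.54, the enolases Eno2 and Eno1 had 2.24 and 0.59, and the topoisomerases Top2b and Top2a had -0.62 and -2.13. The 2 pairs in the other direction were the synaptobrevins Vamp1 and Vamp2, with -0.44 and 1.57, and the regulatory subunits of protein kinase A, Prkar2b and Prkar2a, with -1.85 and 0.48. Subunits of the neuronal BAF chromatin complex gave no common order, with Actl6b and Actl6a at -0.31 and -1.54 but Ss18l1 and Ss18 at -0.97 and -0.90.

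**Figure D5:**
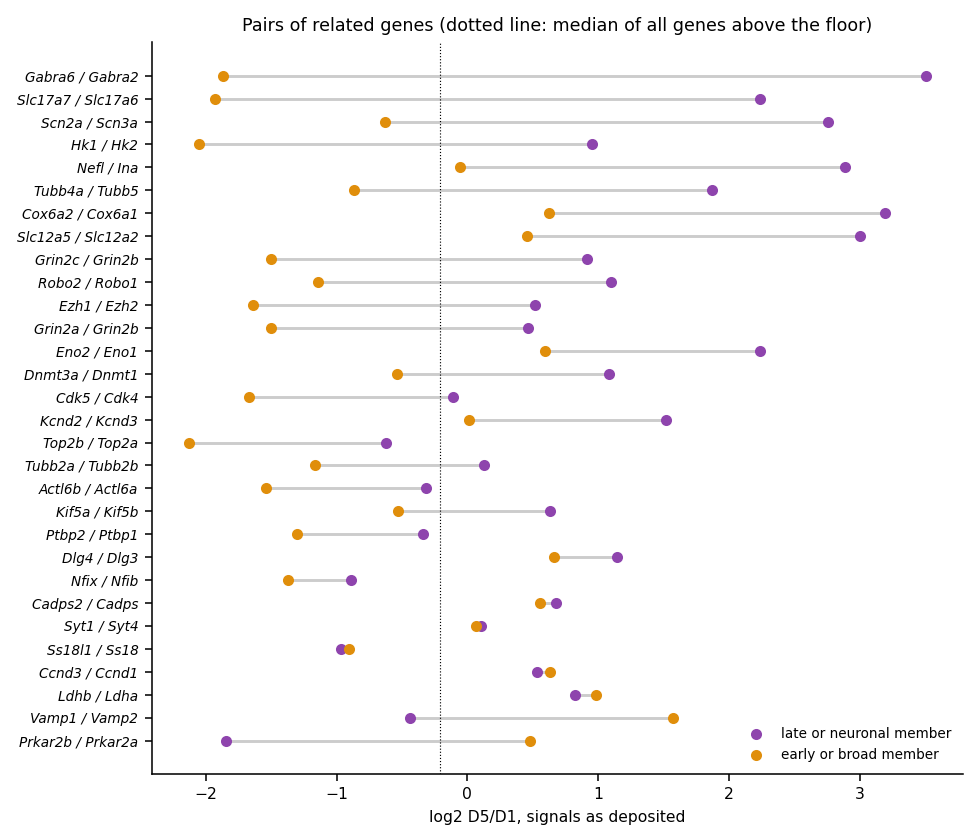
Log2 D5/D1 (x axis, signals as deposited) of both members of 30 pairs of related genes, with the late or neuronal member in purple and the early or broad member in orange, ordered by the difference between them. The purple point lies to the right in 25 of the 30 pairs, and the dotted line marks the median of all genes, -0.21.

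Several lists lay close to the median of all genes. Of 45 ribosomal protein genes 1 was past 2-fold, with a list median of -0.09, and of 22 genes of sterol synthesis also 1, with a list median of -0.11. For example Rps6 had 4094 on D5 and 4811 on D1, and Cyp51, an enzyme of cholesterol synthesis, had 928 on D5 and 873 on D1. Of the p53 targets and apoptosis genes 5 of 25 were lower (20%, against 9.84% of all genes) and none higher, among them the death-promoting Bcl2l11, with 48 on D5 and 146 on D1 (3.04-fold), and Apaf1, which activates caspases, with 58 on D5 and 133 on D1 (2.29-fold). Among metallothioneins and zinc transporters 1 of 15 was past 2-fold, Mt3, the metallothionein of brain, with 593 on D5 and 85.7 on D1 (6.92-fold). Of the supply of transmitter, Got1, which makes glutamate from aspartate, had 882 on D5 and 206 on D1 (4.28-fold), and the glutamate transporter Slc1a3 of glia had 1170.4 on D5 and 1084 on D1.

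For some genes both platforms gave opposite signs. Among called genes whose higher signal was 100 or more, the two-colour values farthest on the other side of 0 were found for Tmem50b, Fmod, Sod3, Rasgrf1 and Mcf2l among the higher genes and for Gjc1, Aldh1l2, Tprn, Gpr85 and Plin2 among the lower ones. Tmem50b had 259 on D5 and 75.6 on D1 with a log ratio of -0.75, and Sod3, an extracellular superoxide dismutase, had 267 on D5 and 57.9 on D1 with -0.35. Gjc1, a connexin, had 117 on D5 and 560.2 on D1 with 1.44, and Plin2, a coat protein of lipid droplets, had 138 on D5 and 411 on D1 with 0.61. In all, 52 higher and 83 lower genes lay on the other side of 0 in the two-colour values, and which of both measurements was nearer to the RNA of these cells cannot be told from 1 array each.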

How the data were processed

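RNA of cultured cerebellar granule cells was read on 1 Affymetrix array per day and on 1 two-colour array. Per the labels and methods, the authors obtained Affymetrix values with GCOS and MAS5 (versions not given in the sources used here), and the deposited values are signal intensities on a linear scale. A scaling to the 50th percentile, named in the methods, is not visible in them, since the array medians were 29.2 on D5 and 32.9 on D1. The two-colour values are deposited log ratios of Cy5 over Cy3, with base and normalization not given in the sources used here. Columns of the drug-treated samples were not used.

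The 57 control probe sets were left out of the gene counts. Of the others, 20826 named 1 gene, 436 several and 9780 none in GEO's platform annotation, and on the two-colour array 12750 probes named 1, 5 several and 7745 none, with 62 of 20500 values missing. Signals below the 40th percentile were replaced by it, fold changes were taken per gene from the brightest probe set, two-colour values were averaged over the probes of a gene, and 2-fold was the threshold. Genes named are the 20 with the largest change in each direction whose higher signal was 100 or more, the 6 with the largest change and the 3 with the highest signal of each list, and further members named for their role after their values were seen. Members and lists were chosen with earlier results of these data known. Promoters came from RefSeq, GRCr8. Steps ran in Python 3.11.15 with numpy 2.4.6, pandas 2.3.3, scipy 1.17.1 and matplotlib 3.10.9 and were tested on simulated data. The alternatives were other floors, thresholds and scalings, the median over probe sets, and single probe sets.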

Additional observations from a re-analysis of the deposited data

How the results depend on the processing

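No test was run, so each value here is a description of 1 array per condition. No paired analysis was possible because each condition had 1 Affymetrix array and the result comes from no test. With the floor at the 20th percentile 1600 genes were lower and 39.9% of called genes were higher. With the floor at the 60th percentile 468 genes were higher and 654 lower, and with no floor 1693 were higher and 2354 lower. A threshold of 1.5-fold gave 1458 higher and 2634 lower genes (35.6% of the called genes higher), and 3-fold gave 333 higher and 344 lower (49.2%). Over probe sets in place of genes 1347 were higher and 2057 lower (39.6%). The share of called genes that were higher was 57.9% with the medians above the floor made equal, 57.1% with the medians of all probe sets made equal, 56.7% after quantile normalization and 55.7% with the hybridization controls made equal, a setting chosen after seeing the data, so the larger direction turns with the scaling. Among genes whose higher signal was 200 or more, 94.7% of the called genes had the same sign on the two-colour array, and Pearson's r was 0.79. Relative list medians moved by less than 0.31, the SD of log2 D5/D1 between probe sets of a gene, in 284 recomputed values and by more in 10, all of these with another floor. The 284 include values with medians or hybridization controls made equal. Those settings scale D5 by a constant and cannot move a relative median, so that part of the 284 is no measure of stability. Raising the floor to the 60th percentile turned the sign of 3 list medians, to 0.03 over 1 gene for endothelial markers (-0.50 at the 40th), -0.06 for ionotropic glutamate receptors (0.34) and 0.01 for p53 targets (-0.14), none of which had been called. Signals near the floor limit what can be seen, since a dim gene has only a bound. Variation between cultures, the time spent in cytosine arabinoside and the makeup of the cultures cannot be told apart from the day of culture.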
